A study of Mus musculus with 6 samples.

Results

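The proteasome genes described here are the 45 protein-coding mouse genes whose GENCODE symbols begin with Psma, Psmb, Psmc, Psmd or Psme. They were matched to the tables by Ensembl identifier, of which 15441 were listed in the series. A value was found for 41 of the 45 in some library, and for 40 in every one of the 6. The genes were divided by role into 5 inducible genes (Psmb8, Psmb9, Psmb10, Psme1 and Psme2), 31 constitutive subunits of the core and regulatory particles, and 9 others. The symbols and not the measured values defined the members.

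The study followed the transcriptome of the cerebral cortex after photothrombosis, a stroke model in which a light beam through the skull activates injected Rose Bengal and closes the vessels of the illuminated cortex. Total RNA came from the ipsilateral cortex of young male C57/BL6J mice killed 1, 3, 7, 14 or 28 days after the stroke, and of sham-operated controls killed 7 days after surgery. The RNA of 3 mice was pooled for each group, so that 1 strand-specific poly(A) library stood for each of the 6 groups. No test between groups was therefore possible, and every difference below compares 2 libraries and has no replicate check.

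The proteasome degrades proteins that carry a ubiquitin chain. Its barrel-shaped core particle is a stack of rings of alpha subunits (Psma genes) and beta subunits (Psmb genes), and only some of the beta subunits cut peptide bonds. The regulatory particle, made of a ring of ATPases (Psmc genes) and of non-ATPase subunits (Psmd genes), binds the ubiquitin chain, unfolds the substrate and feeds it into the core. Interferons induce alternative catalytic subunits, which take the places of the constitutive ones in newly assembled cores to form the immunoproteasome, and the activator PA28, which is built of the products of Psme1 and Psme2. These inducible parts are known for making peptides that are presented on MHC class I molecules, and in the brain they are known mainly from microglia and infiltrating leukocytes.

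The deposited values were FPKM, which are fragment counts divided by transcript length and by library size, of single transcript starts, transcript ends and splicing events, and between 79330 and 93931 events were listed per library. A gene's value was the largest of its summed starts, its summed ends and any single event. The median ratio of a post-stroke library to sham lay between 1.003 and 1.062. The number of reads behind each value was unknown, so no interval is given, and a gene without a value is called not listed rather than absent. Log2 ratios to sham were taken after 0.1 FPKM was added to both values. A gene was compared where it had at least 1 FPKM in 1 of both libraries, and it was counted as past the fold where its log2 ratio was at least 1 in size, which is a 2-fold difference. Since the libraries hold whole cortex, more cells of a type and more RNA per cell cannot be told apart.

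Psmb8 and Psmb9 showed the widest range among the proteasome genes, while Psmb10, the other inducible catalytic gene, stayed near its sham level. Psmb8 encodes the inducible counterpart of the chymotrypsin-like subunit Psmb5. Psmb8 had an FPKM of 1.39 in sham, 2.10 on day 1, 4.47 on day 3, 6.87 on day 7, 7.34 on day 14 and 1.57 on day 28. Its level was higher in each library from day 1 to day 14 than in the one before, and on day 28 it was back beside the sham value. On the log2 scale these levels differed from sham by 0.56, 1.62, 2.22, 2.32 and 0.16, so that Psmb8 was past the fold at days 3, 7 and 14. Psmb9 encodes the counterpart of the caspase-like subunit Psmb6, and was the least abundant inducible gene. Its FPKM was 0.537 in sham, 0.189 on day 1, 1.17 on day 3, 2.53 on day 7, 3.75 on day 14 and 0.527 on day 28. Sham, day 1 and day 28 all lay below 1 FPKM, so Psmb9 was not compared at days 1 and 28. Its log2 ratio was 0.99 on day 3, just inside the fold, 2.04 on day 7 and 2.59 on day 14. With the day 28 library as the reference in place of sham, the log2 ratios on day 14 were 2.15 for Psmb8 and 2.62 for Psmb9. The highest of the 6 libraries exceeded the lowest 5.28-fold for Psmb8 and 19.9-fold for Psmb9, the latter over a day 1 value of 0.189 FPKM.

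**Figure D1:**
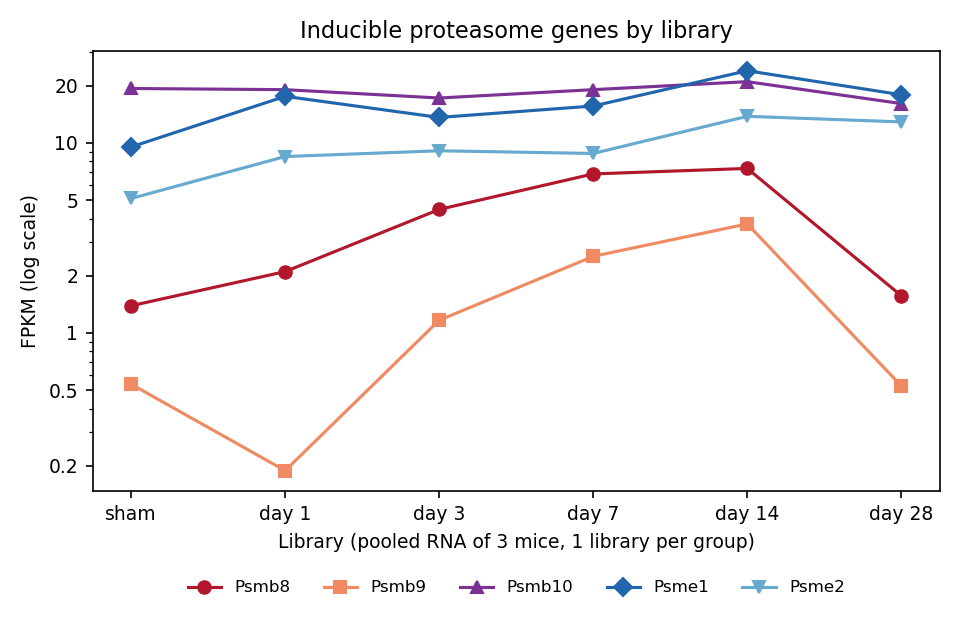
FPKM of the 5 inducible genes (log axis) in the 6 libraries, each point being 1 library of RNA pooled from 3 mice, so that there are no error bars. Psmb8 and Psmb9 peak on day 14 (7.34 and 3.75 FPKM) and lie at 1.57 and 0.527 on day 28, Psme1 and Psme2 are lowest in sham, and Psmb10 stays between 16.1 and 21.

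Psmb10 encodes the counterpart of the trypsin-like subunit Psmb7 and was expressed at a much higher level than Psmb8 and Psmb9 in the sham cortex. Its FPKM was 19.3 in sham, 19.1 on day 1, 17.2 on day 3, 19.1 on day 7, 21 on day 14 and 16.1 on day 28. The log2 ratios ran from -0.26 on day 28 to 0.12 on day 14, and no day passed the fold in either direction. The total level hid a difference between forms of the transcript. Of the spliced and retained forms of the intron at chr8:105936754-105936866 (mm10, minus strand), which lies between exons 5 and 6 of the transcript of 8 exons in GENCODE, the retained form made up 21.4% in sham, 43.3% on day 1, 30.2% on day 3, 25.8% on day 7, 37.8% on day 14 and 38.2% on day 28. The retained form had an FPKM of 4.34 in sham and 10.5 on day 1, while the spliced form went from 16.0 to 13.7. All 5 post-stroke libraries thus had a larger retained share than sham. In sham and at days 3, 7 and 14 the FPKM of the retained form was the same as that of transcripts that start inside the gene, at 105937241-105937665, and at days 1 and 28 it was larger. Where the values were the same, splicing and the use of that start cannot be told apart. A second intron of Psmb10, at 105937381-105937494, was retained in 0.988% to 1.23% of the forms.

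**Figure D2:**
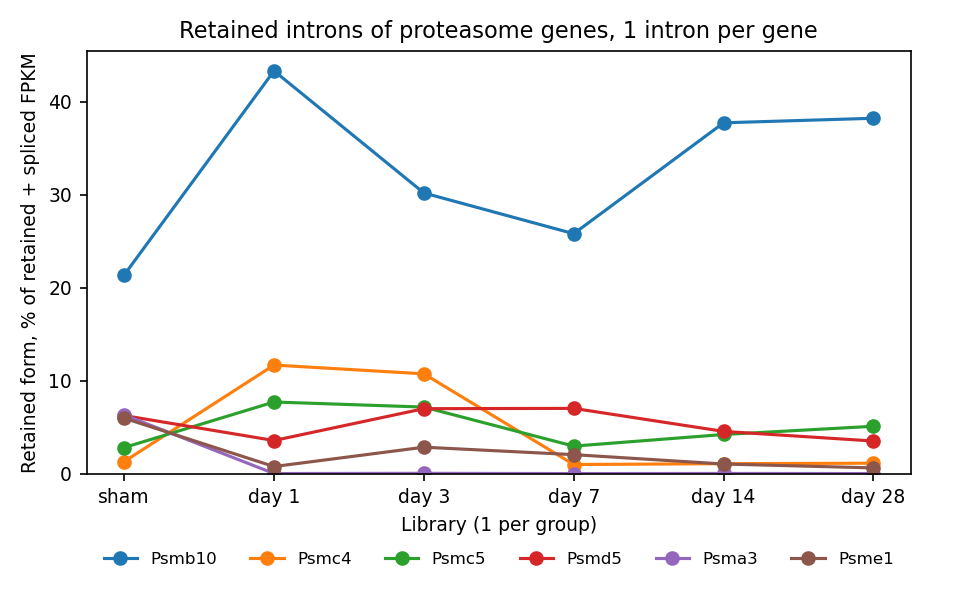
Share of the retained form in the summed FPKM of the retained and the spliced form (%), for the intron with the highest share in each of 6 proteasome genes, by library. Psmb10 lies above the others in every library, from 21.4% in sham to 43.3% on day 1, and the next highest value is 11.7% for Psmc4 on day 1.

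Among the proteasome genes, 12 introns in 9 genes had both forms listed in all 6 libraries. After Psmb10, the highest retained share was that of an intron of Psmc4, an ATPase gene, with 1.31% in sham, 11.7% on day 1, 10.8% on day 3, 0.996% on day 7, 1.09% on day 14 and 1.14% on day 28. Psmc5, another ATPase gene, had 2.82% in sham, 7.72% on day 1, 7.17% on day 3, 2.98% on day 7, 4.23% on day 14 and 5.11% on day 28. Both were highest at days 1 and 3. Other introns had a lower retained share than sham in every post-stroke library. That of Psma3 went from 6.33% in sham to between 0.023% and 0.050%. An intron of Psme1 at 55579833-55579931 went from 5.98% to between 0.633% and 2.86%. Their retained forms had 1.17 and 0.483 FPKM in sham.

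The PA28 genes had a different time course from Psmb8 and Psmb9: they were already higher on day 1 and remained so on day 28. Psme1 had an FPKM of 9.53 in sham, 17.6 on day 1, 13.6 on day 3, 15.6 on day 7, 24.0 on day 14 and 17.9 on day 28. The log2 ratios of Psme1 were 0.88, 0.51, 0.71, 1.32 and 0.90 in the same order, past the fold on day 14. Psme2 had an FPKM of 5.10 in sham, 8.48 on day 1, 9.09 on day 3, 8.80 on day 7, 13.8 on day 14 and 12.9 on day 28. The log2 ratios of Psme2 were 0.72, 0.82, 0.77, 1.42 and 1.32, past the fold at days 14 and 28. For both genes sham was the lowest library and day 14 the highest. These calls rested on the sham library: with day 28 as the reference, the log2 ratio on day 14 was 0.42 for Psme1 and 0.10 for Psme2. The Psme2 value came from 1 splicing event, the spliced intron at chr14:55587740-55588040 (minus strand), in every library but day 1, where that event had 8.11 FPKM. No start of Psme2 was listed in sham and no end at days 1 and 28, and from ends alone its log2 ratio on day 14 was -2.56.

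Of the 5 inducible genes, 4 were compared at days 1 and 28 and 5 at the other days. On day 1 none was past the fold, against 5.11% of the 11790 genes compared that were higher and 4.48% that were lower. Psmb8 alone was past the fold on day 3, upwards, where 8.54% of 12052 genes were higher and 2.53% lower. On day 7 Psmb8 and Psmb9 were past it upwards, 2 of 5, beside 8.53% of 12069 genes higher and 2.12% lower. On day 14 the count was 4 of 5, all but Psmb10 and all upwards, beside 8.97% of 12045 genes higher and 6.92% lower. On day 28 Psme2 was past the fold upwards, 1 of 4, beside 3.68% of 11751 genes higher and 2.79% lower. None of the inducible genes compared was past the fold downwards at any day. The median log2 ratio of the inducible genes compared was 0.64 on day 1, 0.82 on day 3, 0.77 on day 7, 1.42 on day 14 and 0.53 on day 28, while the median of all genes compared stayed between 0.01 and 0.10. Their summed FPKM was 35.9 in sham, 47.4 on day 1, 45.6 on day 3, 52.9 on day 7, 69.9 on day 14 and 49.0 on day 28.

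The promoters of the inducible genes are shown with that of the constitutive Psmb6, the partner of Psmb9, as the comparison turns on these genes. Each window is taken from RefSeq (GRCm38.p6, the same coordinates as mm10), runs 5′ to 3′ on the strand of its gene, and holds 250 bases before the annotated start and 50 after it. Capitals mark any match to 3 short motifs, searched on both strands: GAAANNGAA, the core of the element bound by interferon regulatory factors; TTCNNNGAA, the gamma-activated site of interferon-responsive promoters, which reads the same on both strands; and TGACNNNGC, the core of the antioxidant response element, through which Nfe2l1 and its relatives act on proteasome genes. The windows are chr17:34197945-34198244 (plus) for Psmb8, chr17:34187281-34187580 (minus) for Psmb9, chr8:105938343-105938642 (minus) for Psmb10, chr14:55578244-55578543 (plus) for Psme1, chr14:55591052-55591351 (minus) for Psme2 and chr11:70525107-70525406 (plus) for Psmb6.
Psmb8: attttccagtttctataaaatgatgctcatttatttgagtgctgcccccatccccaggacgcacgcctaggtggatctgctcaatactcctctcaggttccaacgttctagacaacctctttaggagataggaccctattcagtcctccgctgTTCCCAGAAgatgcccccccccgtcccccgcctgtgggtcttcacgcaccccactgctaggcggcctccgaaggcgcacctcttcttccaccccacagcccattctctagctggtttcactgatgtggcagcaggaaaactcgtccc
Psmb9: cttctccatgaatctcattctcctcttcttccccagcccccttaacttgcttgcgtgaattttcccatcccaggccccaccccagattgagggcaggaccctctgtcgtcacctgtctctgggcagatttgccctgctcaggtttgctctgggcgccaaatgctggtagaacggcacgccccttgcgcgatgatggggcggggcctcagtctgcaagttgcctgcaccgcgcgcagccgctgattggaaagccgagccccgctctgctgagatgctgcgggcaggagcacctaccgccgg
Psmb10: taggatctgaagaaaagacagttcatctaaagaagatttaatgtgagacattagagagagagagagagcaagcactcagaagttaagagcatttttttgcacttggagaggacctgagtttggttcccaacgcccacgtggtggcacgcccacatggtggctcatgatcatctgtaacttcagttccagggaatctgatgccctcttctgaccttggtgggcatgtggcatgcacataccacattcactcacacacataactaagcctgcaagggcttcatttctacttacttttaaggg
Psme1: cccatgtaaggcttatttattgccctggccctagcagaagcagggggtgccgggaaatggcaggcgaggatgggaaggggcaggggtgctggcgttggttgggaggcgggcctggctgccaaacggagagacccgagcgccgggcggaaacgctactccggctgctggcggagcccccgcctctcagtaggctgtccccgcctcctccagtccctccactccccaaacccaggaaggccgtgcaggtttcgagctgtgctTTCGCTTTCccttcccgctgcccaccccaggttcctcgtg
Psme2: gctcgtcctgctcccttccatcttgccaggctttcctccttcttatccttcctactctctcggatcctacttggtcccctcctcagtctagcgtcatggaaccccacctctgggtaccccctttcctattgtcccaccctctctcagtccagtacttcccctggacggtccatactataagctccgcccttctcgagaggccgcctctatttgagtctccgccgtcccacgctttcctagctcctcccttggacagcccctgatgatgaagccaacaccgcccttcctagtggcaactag
Psmb6: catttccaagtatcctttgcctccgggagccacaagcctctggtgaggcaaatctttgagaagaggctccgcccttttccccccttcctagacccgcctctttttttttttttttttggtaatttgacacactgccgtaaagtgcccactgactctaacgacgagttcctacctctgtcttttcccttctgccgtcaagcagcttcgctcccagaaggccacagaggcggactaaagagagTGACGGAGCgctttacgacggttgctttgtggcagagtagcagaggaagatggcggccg
The Psmb8 window held 1 gamma-activated site, TTCCCAGAA, at bases 154 to 162. Psme1 had 1 core of the interferon regulatory factor element, on the minus strand and so written TTCGCTTTC, at bases 261 to 269. Psmb6 had 1 antioxidant response core, TGACGGAGC, at bases 242 to 250. The Psmb9 and Psmb10 windows and both windows of Psme2 held none of these letters, which says only that this stretch lacks them. The main start events of Psmb8, Psmb9 and Psme1 began upstream of their windows. Those of Psmb8 ran from 34197790 to 34198545 and, at days 7 and 28, from 34197572 to 34197761. That of Psmb9 ran from 34187764 to 34187250 on the minus strand, and that of Psme1 from 55578123 to 55578248. The marked letters of Psmb8 and Psme1 thus lie downstream of where these events begin. Psme2 had a second RefSeq window, at chr14:55590972-55591271.

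RefSeq windows were found for 38 of the 45 genes, 41 windows in all, and not for Psma8, Psmb1, Psmb2, Psmb7, Psmc3, Psmd3 and Psmd7. The interferon regulatory factor core was in 6 of the 41 windows, or 14.6%, against 8.56% of all 32851 windows in the RefSeq table, and the genes were Psmb3, Psmb4, Psmc2, Psmd4, Psmd9 and Psme1. The antioxidant response core was also in 6 windows, or 14.6%, against 12.4% of all, those of Psmb5, Psmb6, Psmc6, Psmd9, Psmd12 and Psme4. The gamma-activated site was in 2, Psmb8 and Psmd2, or 4.88% against 8.30%. The motifs thus did not sort the inducible from the constitutive genes. A match is a stretch of letters, not a bound site.

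Psmb8 and Psmb9 lie as a pair, as do Psme1 and Psme2, while Psmb10 lies apart on chromosome 8. Psmb8 and Psmb9 are 9956 bases apart on chromosome 17, in the MHC region, with Tap1 between them. Tap1 encodes a subunit of the transporter that carries peptides into the endoplasmic reticulum. It starts at 34187553 on the plus strand, inside the Psmb9 window printed above, and its annotated span overlaps that of Psmb9 by 212 bases on the other strand. Tap1 had an FPKM of 0.664 in sham, 1.14 on day 1, 1.74 on day 3, 3.07 on day 7, 3.72 on day 14 and 0.729 on day 28. Like Psmb8 and Psmb9 it was highest on day 14, with a log2 ratio of 2.32, and near sham on day 28. Tap2, which starts at 34203527 on the other side of Psmb8, did not follow this course. It had 2.43 FPKM in sham, 3.68 on day 7 and 2.98 on day 14. Its log2 ratio on day 14 was 0.29, and it was not past the fold at any day. Psme1 and Psme2 are 5911 bases apart on chromosome 14, on opposite strands.

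The constitutive subunits differed little from sham. Most lay above it at days 1, 14 and 28, and they were split around it at days 3 and 7. Of the 31, 29 were listed and compared at every day. Their FPKM had a median of 40.5 in sham (range 13.0 to 83.4), 50.1 on day 1, 41.0 on day 3, 43.5 on day 7, 48.7 on day 14 and 44.4 on day 28. The median log2 ratio to sham was 0.31 on day 1 (SD 0.24 over the 29 genes), -0.02 on day 3, -0.02 on day 7, 0.27 on day 14 and 0.07 on day 28. On day 1, 27 of the 29 were above sham, beside 51.5% of all genes compared. On day 14 the count was 24 of 29, beside 57.4% of all genes, and on day 28 it was 22 of 29, beside 53.8%. Fewer, 12 of 29, were above sham at days 3 and 7, beside 53.4% and 53.8% of all genes. These shifts were small beside the fold: 1 of 29, Psma1, was past it at days 1 and 14, upwards, none at days 3, 7 and 28, and none downwards at any day. The shares of all genes past the fold at each day are those given with the inducible genes.

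**Figure D3:**
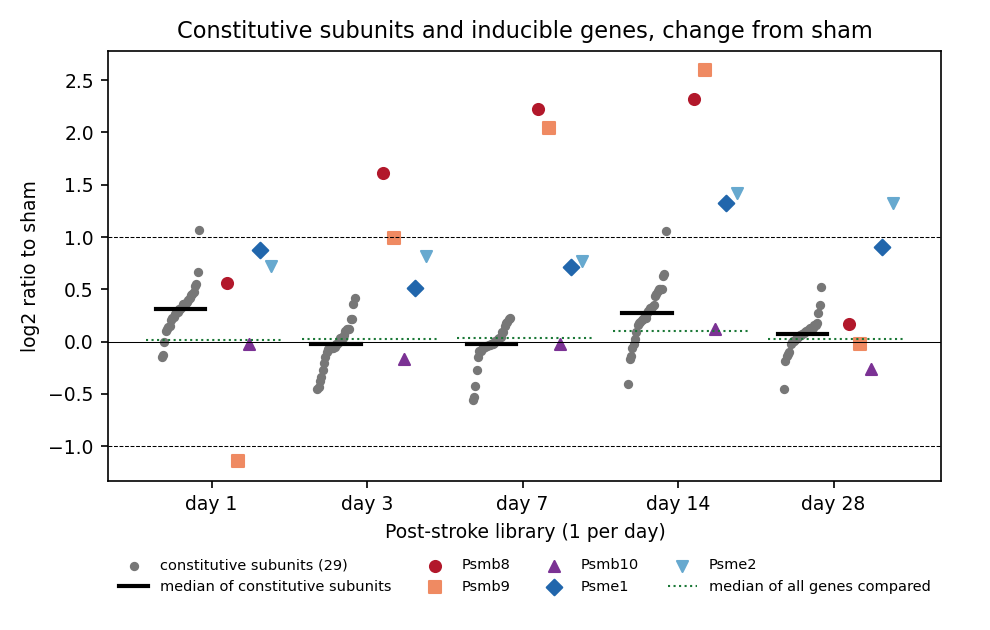
Log2 ratio to sham of the 29 constitutive subunits listed (grey points, bar at their median) and of the 5 inducible genes (coloured symbols) at each day, with the median of all genes compared (dotted) and the 2-fold limits (dashed). The grey points centre on 0.31 on day 1 and 0.27 on day 14 and near 0 at the other days, with Psma1 as the single point past the fold; Psmb9 is drawn at days 1 and 28 although it was under 1 FPKM in both libraries there.

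The day 1 and day 14 shifts were smaller after a correction for transcript length, and their cause was not tested. The longest transcript of the listed constitutive subunits had a median of 1819 nt and that of the inducible genes 1907 nt, compared with 3395 nt over all genes compared. When each library was divided by its trend in the ratio to sham over 20 bins of transcript length, the median of the constitutive subunits became 0.19 on day 1 and 0.00 on day 14, and that of the inducible genes 0.50 and 1.05. Psma1 was then inside the fold on both days, with 0.91 on day 1 and 0.67 on day 14, and Psme2 was inside it on day 14, with 0.98. Psmb8 kept a log2 ratio of 2.01 on day 14 under this correction, and Psmb9 2.42.

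In the core particle, the summed FPKM of the 13 constitutive genes listed was 583 in sham, 760 on day 1, 595 on day 3, 615 on day 7, 784 on day 14 and 621 on day 28. Days 1 and 14 stood above the other libraries. Psma1, an alpha ring gene, varied the most of the constitutive subunits, 2.24-fold, with an FPKM of 16.9 in sham, 35.4 on day 1, 21.7 on day 3, 15.8 on day 7, 35.1 on day 14 and 21.6 on day 28. Its log2 ratios were 1.07 on day 1 and 1.05 on day 14, and they were 0.71 and 0.70 with day 28 as the reference. Psma3 was at the other end of the ring, with an FPKM of 18.8 in sham, 17.0 on day 1, 13.9 on day 3, 18.8 on day 7, 17.1 on day 14 and 16.5 on day 28. It was the alpha gene below sham at both day 1 and day 14, at log2 ratios of -0.15 and -0.14.

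The 4 structural beta genes, which carry no active site, were above sham at days 1 and 14 without exception, with median log2 ratios of 0.43 and 0.50. Psmb3 had the largest, with an FPKM of 50.7 in sham, 73.6 on day 1, 55.3 on day 3, 49.5 on day 7, 78.6 on day 14 and 54.9 on day 28. Psmb1 had the smallest, with 74.7 in sham, 92.7 on day 1, 71.8 on day 3, 77.1 on day 7, 101 on day 14 and 81.9 on day 28. Their log2 ratios on day 14 were 0.63 and 0.44. Of the constitutive catalytic genes, Psmb6 had an FPKM of 74.9 in sham, 99.9 on day 1, 81.2 on day 3, 86.9 on day 7, 117 on day 14 and 76.2 on day 28. Psmb7 had 76.9 in sham, 99.6 on day 1, 79.1 on day 3, 74.3 on day 7, 94.1 on day 14 and 77.3 on day 28. Both thus returned to their sham level on day 28, with log2 ratios of 0.02 and 0.01.

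Psmb5, the chymotrypsin-like subunit, was not listed under its own identifier in any library, nor was Psmd1, the largest scaffold subunit of the regulatory particle. Starts on the span of Psmb5 were listed under the identifier of Mir686, a microRNA gene inside it, with an FPKM of 61.6 in sham, 87.6 on day 1, 60.7 on day 3, 61.6 on day 7, 91.6 on day 14 and 75.4 on day 28. Starts on the span of Psmd1 were listed under that of Armc9, with 17.7 in sham, 24.2 on day 1, 21.7 on day 3, 21 on day 7, 23.7 on day 14 and 20.7 on day 28. The Psmb5 values follow the order of the other beta genes, with days 1 and 14 highest and log2 ratios of 0.51 and 0.57. Adding both genes by position moved the constitutive median to 0.33 on day 1 and 0.29 on day 14.

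**Figure D4:**
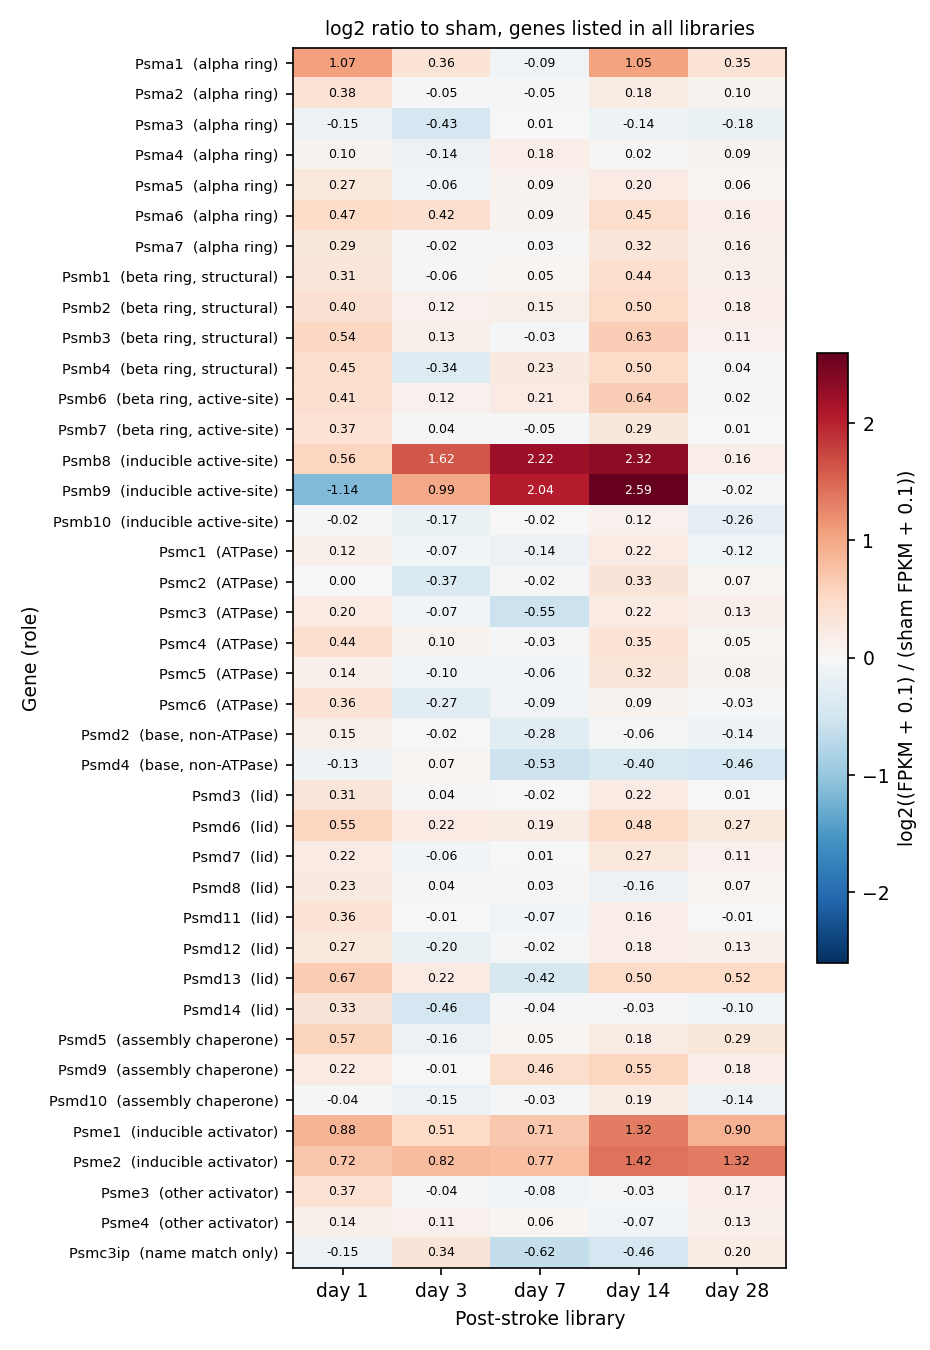
Log2 ratio to sham (colour scale and printed value) of the 40 proteasome genes listed in all 6 libraries, in rows ordered by role, at each post-stroke day. Psmb8, Psmb9, Psme1 and Psme2 carry most of the deep red, columns day 1 and day 14 are pale red over most subunits, and the Psmb9 value on day 1 (-1.14) compares 2 levels below 1 FPKM.

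In the regulatory particle, the summed FPKM of the 16 genes listed was 691 in sham, 809 on day 1, 661 on day 3, 632 on day 7, 784 on day 14 and 703 on day 28. The 6 ATPase genes unfold the substrate, and all lay above sham at days 1 and 14 and below it on day 7. Psmc4 had the highest ratio of the ATPase genes on both days, with an FPKM of 38.2 in sham, 52.0 on day 1, 41.0 on day 3, 37.5 on day 7, 48.7 on day 14 and 39.6 on day 28. Psmc2 had the lowest ratio on day 1, with 50.1 in sham, 50.1 on day 1, 38.6 on day 3, 49.3 on day 7, 62.9 on day 14 and 52.4 on day 28. Psmc6 had the lowest on day 14, with 27.3 in sham, 35.0 on day 1, 22.5 on day 3, 25.6 on day 7, 29.1 on day 14 and 26.8 on day 28. The ATPase gene farthest from sham at any day was Psmc3, at a log2 ratio of -0.55 on day 7.

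Psmd2 and Psmd4 are base subunits that hold or recruit ubiquitin carriers, and Psmd4 is a ubiquitin receptor. Psmd2 had an FPKM of 58.3 in sham, 64.5 on day 1, 57.5 on day 3, 48.2 on day 7, 56.0 on day 14 and 52.9 on day 28. Psmd4 had 40.1 in sham, 36.6 on day 1, 41.9 on day 3, 27.6 on day 7, 30.2 on day 14 and 29.2 on day 28. Psmd4 had a log2 ratio of -0.40 on day 14, the lowest of the constitutive subunits listed, 24 of 29 of which were above sham there. The 8 lid genes include Psmd14, the enzyme that removes the ubiquitin chain, and had a median log2 ratio of 0.32 on day 1 and 0.20 on day 14. Psmd13 had the largest lid ratio on both days, with an FPKM of 18.2 in sham, 29 on day 1, 21.3 on day 3, 13.6 on day 7, 25.9 on day 14 and 26.3 on day 28. Psmd7 had the smallest on day 1, with 46.6 in sham, 54.5 on day 1, 44.6 on day 3, 46.8 on day 7, 56.4 on day 14 and 50.3 on day 28. Psmd8 had the smallest on day 14, with 42.5 in sham, 49.97 on day 1, 43.6 on day 3, 43.5 on day 7, 38.0 on day 14 and 44.6 on day 28. The log2 ratios of Psmd13 were 0.67 on day 1 and -0.42 on day 7, so this gene crossed its sham level.

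Within a library, the inducible gene can be set beside the constitutive gene whose place its product takes, a ratio that does not depend on the scaling of the library. Psmb8 made up 2.21% of the summed FPKM of Psmb8 and Psmb5 (by position) in sham, 2.34% on day 1, 6.86% on day 3, 10.03% on day 7, 7.42% on day 14 and 2.04% on day 28. The share was highest on day 7 although Psmb8 itself was highest on day 14, as Psmb5 was 91.6 FPKM on day 14 and 61.6 on day 7. Psmb9 made up 0.712% of Psmb9 and Psmb6 in sham, 0.189% on day 1, 1.42% on day 3, 2.83% on day 7, 3.10% on day 14 and 0.687% on day 28. Psmb10 made up 20.1% of Psmb10 and Psmb7 in sham, 16.1% on day 1, 17.9% on day 3, 20.4% on day 7, 18.3% on day 14 and 17.2% on day 28. In every library the constitutive catalytic transcript was thus the more abundant of each pair, by 8.97-fold or more for Psmb5 over Psmb8, by 31.3-fold or more for Psmb6 over Psmb9 and by 3.90-fold or more for Psmb7 over Psmb10.

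**Figure D5:**
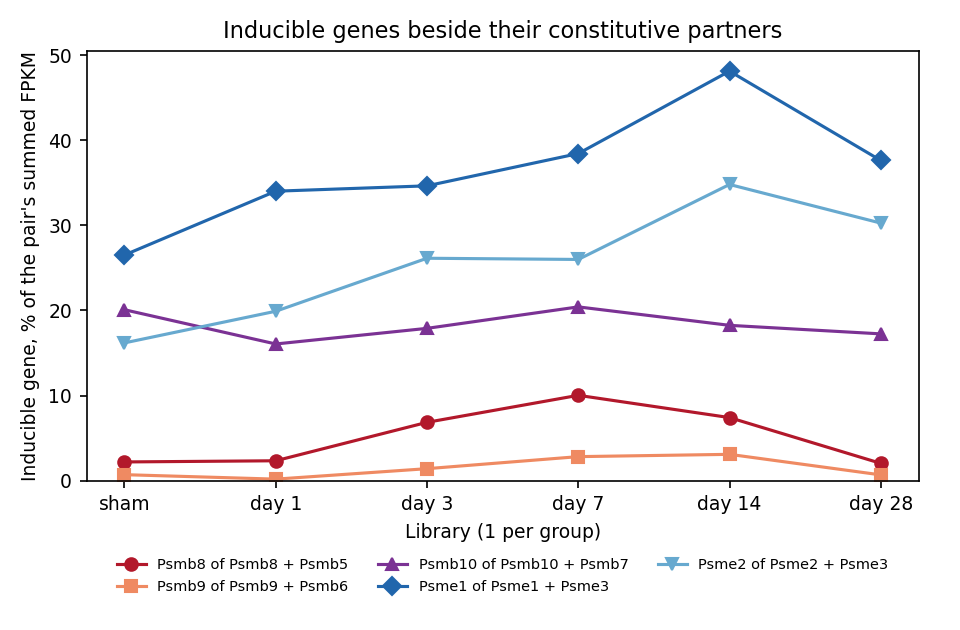
Share of the inducible gene in the summed FPKM of a pair of genes (%), by library. The catalytic genes are paired with their constitutive partners, with Psmb5 taken by position. Psme1 and Psme2 are paired with Psme3, another activator and not a constitutive subunit. Psmb8 reaches 10.03% on day 7 and Psmb9 3.10% on day 14, Psmb10 stays between 16.1% and 20.4%, and Psme1 reaches 48.1% of Psme1 and Psme3 on day 14.

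Psme3 encodes PA28 gamma, a nuclear activator that is not part of the interferon response, and Psme4 encodes the large activator PA200. Psme3 had an FPKM of 26.4 in sham, 34.1 on day 1, 25.7 on day 3, 25.1 on day 7, 25.9 on day 14 and 29.7 on day 28. Psme4 had 6.89 in sham, 7.61 on day 1, 7.42 on day 3, 7.17 on day 7, 6.54 on day 14 and 7.55 on day 28, the narrowest range of the proteasome genes at 1.16-fold. Neither was past the fold at any day. Psme1 made up 26.5% of the summed FPKM of Psme1 and Psme3 in sham, 34.0% on day 1, 34.6% on day 3, 38.4% on day 7, 48.1% on day 14 and 37.6% on day 28. Psme2 made up 16.2% of Psme2 and Psme3 in sham, 19.9% on day 1, 26.1% on day 3, 26.0% on day 7, 34.8% on day 14 and 30.3% on day 28.

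Psmd5, Psmd9 and Psmd10 encode chaperones that assemble the base of the regulatory particle, and none was past the fold. Psmd5 had an FPKM of 9.58 in sham, 14.3 on day 1, 8.57 on day 3, 9.93 on day 7, 10.9 on day 14 and 11.8 on day 28. Psmd9 had 7.46 in sham, 8.72 on day 1, 7.42 on day 3, 10.3 on day 7, 11 on day 14 and 8.48 on day 28. Psmd10 had 9.11 in sham, 8.86 on day 1, 8.19 on day 3, 8.89 on day 7, 10.4 on day 14 and 8.23 on day 28. The highest library was thus day 1 for Psmd5 and day 14 for the other two. Of the tissue-specific core genes, Psma8, known from the testis, was listed only in sham (0.461 FPKM) and on day 7 (0.675 FPKM), and Psmb11, the thymus subunit, in no library. Psme2b was not listed either. Psmc3ip matches by its name only, encodes a recombination factor that binds Psmc3 and is no subunit. It had an FPKM of 1.05 in sham, 0.937 on day 1, 1.36 on day 3, 0.646 on day 7, 0.739 on day 14 and 1.22 on day 28.

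Other genes of the pathway were read from a list of 19 assembly factors, ubiquitin genes, shuttle proteins and regulators, of which 17 were listed and Ddi2 and Ubqln2 were not. None of the 17 was past the fold at any day in either direction. Of all genes compared, 3.68% to 8.97% were higher and 2.12% to 6.92% lower, depending on the day. At these shares few of 17 genes would be past the fold. The median log2 ratio of the 17 was 0.28 on day 1, -0.06 on day 3, 0.00 on day 7, 0.23 on day 14 and 0.01 on day 28. Pomp, which assembles core particles of both kinds, had an FPKM of 29.6 in sham, 36.0 on day 1, 34.4 on day 3, 35.8 on day 7, 41.1 on day 14 and 31.4 on day 28. Nfe2l1, the transcription factor that drives proteasome genes when degradation is short, had 45.7 in sham, 38.2 on day 1, 49.0 on day 3, 45.7 on day 7, 41.5 on day 14 and 52.9 on day 28. Nfe2l1 was lowest on day 1 and highest on day 28, and its part in the levels of the subunits was not tested.

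In a second list of 18 genes for MHC class I antigen processing and interferon signalling, 17 were compared at days 1 to 14 and 16 on day 28. Past the fold upwards were 1 gene on day 1, 3 on day 3, 6 on day 7 and 6 on day 14. On day 28 there was none. The shares of all genes higher were 5.11%, 8.54%, 8.53%, 8.97% and 3.68% in the same order, so the 1 of 17 on day 1 lay near the background. None was past it downwards, beside 2.12% to 6.92% of all genes, depending on the day. The list genes past the fold upwards were Tap1, B2m, H2-D1, H2-K1, Stat2 and Irf1. B2m, the light chain of MHC class I, had an FPKM of 71.1 in sham, 91.6 on day 1, 155 on day 3, 239 on day 7, 308 on day 14 and 91.6 on day 28. H2-D1, a heavy chain, had 11.1 in sham, 17.2 on day 1, 28.2 on day 3, 45.5 on day 7, 58.2 on day 14 and 15.7 on day 28. H2-K1 had 9.38 in sham, 12.7 on day 1, 12.3 on day 3, 20.2 on day 7, 43.1 on day 14 and 14.2 on day 28. All 3 had their highest value on day 14, as Psmb8 and Psmb9 did. The heavy chain genes belong to a family of similar sequences, so their values are uncertain where reads could be shared.

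The regulators differed in their peak. Stat2, which carries type I interferon signals to the nucleus, had an FPKM of 2.13 in sham, 4.27 on day 1, 3.74 on day 3, 5.16 on day 7, 4.53 on day 14 and 4.15 on day 28. Irf1, an interferon regulatory factor known to act on Psmb9, had 1.65 in sham, 3.60 on day 1, 3.23 on day 3, 3.82 on day 7, 4.67 on day 14 and 2.32 on day 28. Stat2 was thus highest on day 7 and Irf1 on day 14.

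Cell type markers moved over the same days. The summed FPKM of the microglia and macrophage markers listed (7 of 8, Itgam being in no library) was 73.1 in sham, 72.7 on day 1, 186 on day 3, 256 on day 7, 208 on day 14 and 80.8 on day 28. Cx3cr1 was listed at days 1 and 14 alone. The sum was higher at days 3, 7 and 14, the days at which Psmb8 was past the fold, than in the other libraries. On day 14, where Psmb8 and Psmb9 were highest, the sum was below that of day 7. Tyrobp, Csf1r and Cd68 made up most of it, and P2ry12, a marker of resting microglia, did not follow it, with log2 ratios of -1.35 on day 1, 0.26 on day 3, -0.03 on day 7, -0.44 on day 14 and -0.21 on day 28. Neuron markers (5 of 6, without Tubb3) summed to 1462 in sham, 1359 on day 1, 1041 on day 3, 1076 on day 7, 979 on day 14 and 1258 on day 28. All 5 were listed in every library. The sum was lowest on day 14, but Rbfox3 (91.5 FPKM against 89.9 in sham) and Gad1 (77.3 against 70.3) were above sham on that day. The astrocyte markers (4 of 4) summed to 281 in sham and 949 on day 3, where the sum was highest. Gfap carried most of that difference, with 85.8 FPKM in sham and 698 on day 3. The log2 ratios on day 3 were 0.90 for Aqp4, 0.28 for Slc1a3 and 0.04 for Aldh1l1. Oligodendrocyte markers (4 of 4) summed to between 1418 and 2018. Endothelial markers summed to between 7.04 and 16.6. Only 2 to 4 of these 4 genes were listed in a given library, and the lowest sum, on day 14, held 2 of them. Neutrophil markers (3 of 4, without Ly6g) summed to 16.6 on day 1 and 9.16 on day 14, and to between 0 and 1.59 in the other libraries. T cell markers (3 of 5) lay between 1.49 and 5.04, most of it Cd4, which microglia can also express. Cd3g and Cd8a were in no library, and Cd3e was listed on day 14 alone, with 0.131 FPKM. B cell markers (2 of 2) lay between 0 and 1.20. The part of these cell types in the levels of the inducible genes was not tested.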

How the data were processed

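Poly(A) RNA from ipsilateral cortex was sequenced in 6 libraries, each of the pooled RNA of 3 mice. The deposited tables hold FPKM that the authors computed per transcript start, end or splicing event. The submitters' processing notes name Trimmomatic 0.30, HISAT2 2.0.1, HTSeq 0.6.1 and the build mm10. The tool that assembled transcripts is not given in the sources used here. Repeated event entries were counted once. The largest of summed starts, summed ends and any single event served as the gene value, which is a lower bound and can rest on different events in different libraries. Python 3.11.15, pandas 2.3.3 and numpy 2.4.6 were used, the annotation was GENCODE, and the scripts were tested on simulated data. With 1 library per group no test, SE or interval was computed. For ratios, genes under 1 FPKM in both libraries were left out, and 0.1 FPKM was added.

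The genes, lists and motifs were chosen with earlier results of these data known. Values in every library are given for the inducible genes, their constitutive partners, Psme3, Psme4 and genes past the fold. They are also given for the highest and lowest gene of each role at days 1 and 14, and pathway list genes past the fold. Psmc3, Psmc5, Pomp and Nfe2l1 fall outside this rule where they are described and were chosen after their values were seen. Alternatives covered the pseudocount, filter, fold, gene value, library scaling, transcript length and reference library. Read depth per library was unknown. Some genes of the marker and pathway lists are not reported here and were left out of the lists' counts.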

Additional observations from a re-analysis of the deposited data

Results flagged for a closer look

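Single start, end and splicing events were searched for those with at least 5 FPKM whose share of their gene's value was at least 25 percentage points above that in sham. This held for 46 values of events in 11 genes, and a missing sham entry counted as 0. Only events listed in all 6 libraries are given here, each interval once, which leaves 18 values of 8 events in 6 genes. No difference was tested. Psmb10 had the retained intron already described, at 55.1% of the gene value at day 1 against 22.4% in sham. In Psmd2, a transcript form with an alternative exon end at chr16:20652244-20652300 made up 48.4% of the gene value at day 7, 98.8% at day 14 and 97.7% at day 28, compared with 20.5% in sham. Psmd8 had an end at chr7:29174188-29175522 that made up 50.9% at day 7 against 1.52% in sham. The spliced form of a Psmd8 intron at chr7:29176173-29177066 made up 100% at days 1, 3 and 7 and 93.0% at day 14. It made up 65.9% in sham and 54.3% at day 28. The retained form was listed on day 14 alone, with 2.66 FPKM, so the lower shares do not measure retention. In Psma3, a start at chr12:70974621-70974767 made up 100% at days 3, 14 and 28 against 69.0% in sham. A further start, at chr12:70975299-70975497, was listed in sham, with 5.82 FPKM, and on day 1 alone. The entry for inclusion of the exon at chr12:70978733-70978815 made up 88.6% at day 3, 95.8% at day 14 and 87.0% at day 28 against 60.9%. Another entry for the same exon, as an alternative exon end, made up 91.9% in sham. The 60.9% thus does not mean that the remaining transcripts skipped the exon. Psma4 had an end at chr9:54957635-54958030 with 100% at day 7 and 61.7% in sham. In Psme4, skipping of the exon at chr11:30827009-30827069 made up 97.3% at day 1 and 100% at day 14, and 71.0% in sham. The entry for inclusion of that exon made up 11.7% in sham.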

How the results depend on the processing

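No paired analysis was possible because each group has 1 library, and for the same reason no library could be left out. Over 752 alternative values, 661 moved by at most 1.5-fold, and log2 ratios among them also stayed on the same side of the fold. Another 74 moved further, 10 came inside the fold, 6 passed it and 1 reversed. A reversal was counted only for log2 ratios that were past the fold at first. Sign changes of smaller ratios were not counted as such. Psme2 at day 1, for example, went from 0.72 to -0.60 with day 28 as the reference. The reversed value was Psme2 at day 14, -2.56 from ends alone. The cause of these shifts was not tested. The day 28 reference and the addition of Psmb5 and Psmd1 were chosen after seeing the data. The 661 include values that an alternative could not change, such as those of the inducible genes under that addition. Their number is therefore no measure of how stable the results are.

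The count of inducible genes higher was 1 at day 1 from starts and from ends alone and 2 at a 1.5-fold limit. At day 3 it was 2 with a pseudocount of 0.01, starts alone, length correction or day 28 as the reference, 3 at 1.5-fold and 0 at a log2 limit of 2. At day 7 it was 1 with at least 1 FPKM in both libraries and 4 at 1.5-fold. At day 14 it was 2 at a log2 limit of 2 and with day 28 as the reference. At day 28 it was 2 at 1.5-fold and 0 at a log2 limit of 2. The count lower was 1 at each day from ends alone, and 1 at day 1 without a filter. The median of the inducible genes was 0.10 at day 3 and 0.42 at day 14 with day 28 as the reference, 2.04 at day 7 and 2.32 at day 14 from starts, and -0.10 at day 28 from ends. The count of constitutive genes higher was 2 at day 1 from starts and at 1.5-fold, and 0 there with length correction, a log2 limit of 2 or day 28 as the reference. It was 1 at day 3 from starts. At day 14 it was 3 at 1.5-fold and 0 with scaling, length correction, a log2 limit of 2 or day 28 as the reference. From ends, the log2 level ratio of Psmb9 over Psmb6 was -9.76 at day 1, and that of Psme2 over Psme3 was -4.08 at day 3, -4.75 at day 7 and -5.57 at day 14. From starts the last was -4.80 at day 28.

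Of all genes, 1130, 1334, 1286, 1915 and 760 were past the fold at days 1, 3, 7, 14 and 28. With a pseudocount of 1 these were 674, 796 and 806 at days 1, 3 and 7, and 424 at day 28. Without a filter they were 2449, 2646, 2660, 3238 and 1973. With at least 1 FPKM in both libraries they were 502, 625, 595, 829 and 306. At 1.5-fold they were 2673, 2715, 2577, 3837 and 1862, and at a log2 limit of 2 they were 397, 443, 491, 813 and 258.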
